A study of Mus musculus with 20 samples.

Results

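Transcripts of the mitochondrial genome were followed in plantaris muscle of old mice. The members are the genes whose name starts with mt-, and 15 of the 22660 genes in the count table met this rule. They are 13 protein genes and 2 ribosomal RNA genes, of the 37 genes annotated on the mitochondrial chromosome. The 22 transfer RNA genes have no entry in the count table and could not be analysed. All 15 members passed the minimum of 10 counts in at least 5 mice in every comparison.

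The 20 mice were old C57BL/6J males of 2 years, with 5 different animals in each of 4 groups. Vehicle sham and D + Q sham mice had the skin of the hind limb opened and no muscle removed. Vehicle MOV and D + Q MOV mice had parts of the gastrocnemius and soleus excised on both sides, a synergist ablation that puts the plantaris under mechanical overload (MOV). D + Q was dasatinib, a tyrosine kinase inhibitor, at 5 mg/kg with quercetin, a plant flavonoid, at 50 mg/kg, both by gavage in 10% polyethylene glycol, which alone was the vehicle. The paper and the treatment protocol place the gavages of sham and MOV mice on days 7 and 10, whereas the design text names day 14 for the second gavage of sham mice. Muscle was collected on day 14. Total counts per mouse lay between 17887532 and 26234518.

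Mitochondrial DNA is a small circular genome present in many copies per cell. It encodes subunits of respiratory complexes I, III, IV and V, the ribosomal RNAs of the mitochondrial ribosome and the transfer RNAs that serve it, while all other mitochondrial proteins come from nuclear genes. Long transcripts of each strand are processed into single RNAs, mostly by release of the transfer RNAs between the genes, and in muscle these RNAs are among the most abundant of the fiber.

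One junction shows this layout. The transfer RNA gene mt-Tl1 lies on the forward strand at chrM:2676-2750 of GRCm39, directly between mt-Rnr2 (ending at 2675) and mt-Nd1 (starting at 2751). It is printed because it stands between a ribosomal RNA gene and a protein gene of the same strand.
mt-Tl1: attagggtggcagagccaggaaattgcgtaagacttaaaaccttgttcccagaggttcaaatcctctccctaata

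A second feature bears on how counts were assigned. A stretch of chromosome 1 at chr1:24650616-24655269 (minus strand, GRCm39) matches chrM:6390-11042 with 2 mismatches and 1 gap over 4654 aligned columns, an identity of 99.94%. The table has 7 genes on this nuclear copy of mitochondrial DNA. Over their first 60 bases, mt-Co3 (chrM:8607-8666) and its copy Gm28437 (chr1:24652993-24653052, minus strand) read the same.
mt-Co3: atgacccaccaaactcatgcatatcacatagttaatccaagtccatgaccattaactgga
Gm28437: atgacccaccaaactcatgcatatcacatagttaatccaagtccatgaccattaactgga
The pair mt-Nd3 and Gm28438 differs at 1 base, T3C counted from the first base of mt-Nd3, shown in capitals within windows at chrM:9441-9481 and chr1:24652178-24652218 (minus strand).
mt-Nd3: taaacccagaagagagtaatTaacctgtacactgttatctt
Gm28438: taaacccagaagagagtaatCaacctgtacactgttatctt

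Reads from identical stretches cannot be told apart, and the estimated counts were divided differently from pair to pair. Gm28661 held 50.0% ± 0.0417 (SD, n = 20) of the counts shared with mt-Co2, which encodes a core subunit of complex IV, and Gm28437 held 50.0% ± 0.0129 (SD, n = 20) of those shared with mt-Co3. The split was thus close to even, between 49.9% and 50.1% in every mouse for both pairs. Gm10925 held 22.9% ± 3.12 (SD, n = 20) of the counts shared with mt-Atp6, and Gm28438 held 15.9% ± 2.84 (SD, n = 20) of those shared with mt-Nd3. On average these copies held a larger part in MOV mice, without a test. Gm10925 held 20.7% and 19.7% on average in vehicle sham and D + Q sham mice but 25.0% and 26.3% in vehicle MOV and D + Q MOV mice, and Gm28438 held 13.4%, 14.4%, 16.9% and 18.9% in the same order. Sham and MOV mice did not overlap for Gm10925 and overlapped for Gm28438. Gm29216, Gm10222 and Gm28439 held at most 0.455%, 0.354% and 0.940% of the counts shared with mt-Co1, mt-Nd4l and mt-Nd4. Of these, Gm10222 and Gm28439 match mt-Nd4l and mt-Nd4 at every aligned base, so identical copies were not all treated alike. The levels of mt-Co2, mt-Co3, mt-Atp6, mt-Nd3, mt-Nd4l and mt-Nd4 are therefore uncertain, since the counts of each gene and its copy could have been divided otherwise. For mt-Atp6 and mt-Nd3 this also holds for the fold changes with overload. The level of mt-Co1 shares the limit in part, as 31.3% of the gene matches Gm29216 with 1 mismatch. The gene mt-Atp8 (chrM:7766-7969) also lies within the matched stretch, with no copy of its own among these pairs, so its level is uncertain too. The other 9 nuclear genes that match mitochondrial genes lie elsewhere, and none exceeded 2529 counts in a mouse.

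**Figure D1:**
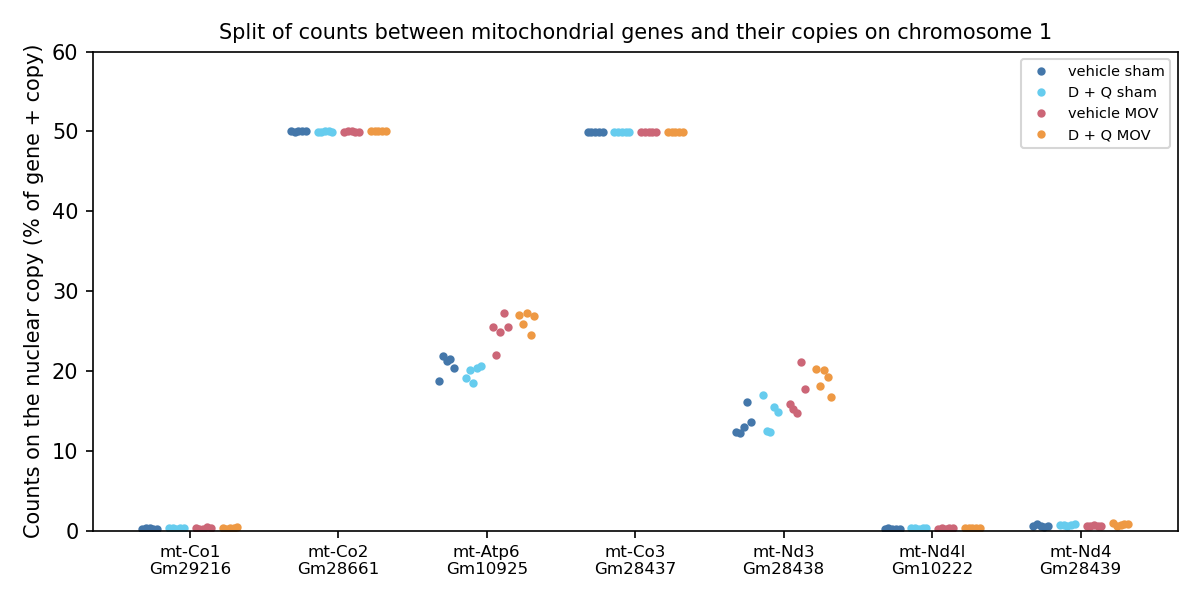
Percent of the counts of each mitochondrial gene and its chromosome 1 copy that were assigned to the copy (y axis), by gene pair (x axis), with 1 point per mouse and colors for the 4 groups. The mt-Co2 and mt-Co3 pairs sit between 49.9% and 50.1% in every mouse, while the mt-Atp6 pair ranges from 18.4% to 27.3%.

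The first question was how much of the counted RNA came from the mitochondrial genome in each group. In vehicle sham mice, the summed mt- counts were 16.2%, 15.8%, 14.8%, 15.1% and 15.6% of all counts. In D + Q sham mice they were 16.0%, 14.9%, 13.3%, 12.9% and 14.5%. The sham groups overlapped, and the D + Q sham mice were more spread. In vehicle MOV mice the share was 11.1%, 10.5%, 10.3%, 9.28% and 9.70%, and in D + Q MOV mice it was 9.58%, 9.74%, 9.27%, 9.92% and 9.73%. Every MOV mouse lay below every sham mouse, and the MOV groups overlapped each other.

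With vehicle, the mean share was 15.5% ± 0.549 (SD, n = 5) in sham and 10.2% ± 0.699 (SD, n = 5) in MOV mice, a difference of -5.34 percentage points with an SE of 0.397. With D + Q, it was 14.3% ± 1.25 (SD, n = 5) in sham and 9.65% ± 0.244 (SD, n = 5) in MOV mice, a difference of -4.67 percentage points with an SE of 0.570. Both differences exceeded the spread between mice. D + Q and vehicle differed by -1.20 percentage points in sham and by -0.527 in MOV muscle, with overlapping groups. The difference in MOV muscle was -0.308 without vehicle MOV mouse 1 and -0.752 without vehicle MOV mouse 4. Counts assigned to the nuclear copies are left out of these shares. With them added, the mean share was 17.4% in vehicle sham, 16.0% in D + Q sham, 11.5% in vehicle MOV and 10.9% in D + Q MOV mice. The differences between MOV and sham were then -5.90 percentage points with vehicle and -5.11 with D + Q, again without overlap. No test was made of these sums.

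**Figure D2:**
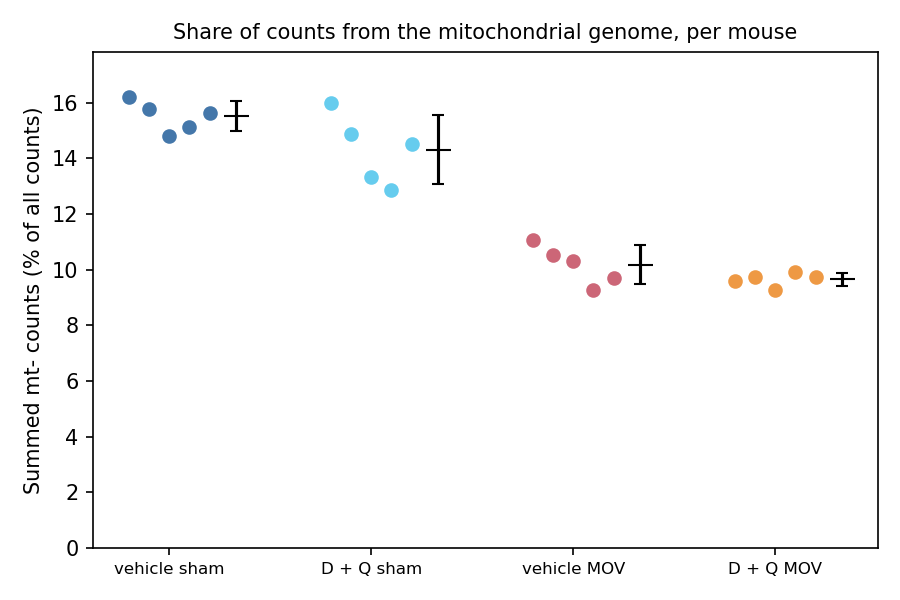
Summed mt- counts as percent of all counts (y axis) in the 4 groups (x axis), with 1 point per mouse and the mean with its SD in black. The MOV mice sit between 9.27% and 11.1%, below all sham mice, which sit between 12.9% and 16.2%.

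The share was also divided by complex. The 7 complex I genes made up 5.92% ± 0.324 (SD, n = 5) of all counts in vehicle sham and 3.56% ± 0.279 (SD, n = 5) in vehicle MOV mice. The 3 complex IV genes made up 6.35% ± 0.172 (SD, n = 5) and 4.40% ± 0.303 (SD, n = 5). Neither class overlapped between these groups. The ratio of the MOV to the sham mean was 0.602 for complex I, 0.693 for complex IV, 0.634 for complex V and 0.777 for the ribosomal RNAs. Counts assigned to the nuclear copies are left out here, and for mt-Co2 and mt-Co3 the copies held close to as many counts as the genes. The copies of mt-Atp6 and mt-Nd3 held a larger mean part in MOV mice, which makes the ratios of complexes V and I less certain. The ribosomal RNAs made up only 0.235% ± 0.0492 (SD, n = 5) in vehicle sham mice, and here the groups overlapped. Their mean share was higher in D + Q than in vehicle mice, at 0.258% in D + Q sham mice and, in MOV muscle, at 0.203% with D + Q and 0.182% with vehicle, with overlapping groups.

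Per kilobase of gene length, mt-Co1, which encodes the catalytic subunit of complex IV, had the highest level in every group. In vehicle sham mice its level was 36220 ± 1432 (SD, n = 5) CPM per kilobase, where CPM is a count relative to the TMM-scaled library size. The next level, that of the ATP synthase gene mt-Atp6, was 19871 ± 1153 (SD, n = 5) CPM per kilobase, and the values of these genes did not overlap. From mt-Atp6 down to mt-Nd2, at 10498 ± 835 (SD, n = 5) CPM per kilobase, each gene overlapped the next in the order mt-Nd1, mt-Cytb, mt-Atp8, mt-Nd4, mt-Nd4l, mt-Co2, mt-Co3. The genes mt-Nd5, mt-Nd6 and mt-Nd3 followed at 7472 ± 801, 7283 ± 795 and 5659 ± 673 (SD, n = 5) CPM per kilobase, of which mt-Nd5 and mt-Nd6 overlapped. The lowest levels were those of mt-Rnr2, at 1144 ± 245 (SD, n = 5), and mt-Rnr1, at 951 ± 195 (SD, n = 5) CPM per kilobase. Whether the libraries were selected for polyadenylated RNA or depleted of ribosomal RNA is not given in the sources used here, and its part in the low level of the ribosomal RNAs was not tested. With the counts of their copies added, mt-Atp6 reached 25061 ± 1069 (SD, n = 5), mt-Co2 24794 ± 1268 (SD, n = 5) and mt-Co3 23208 ± 967 (SD, n = 5) CPM per kilobase in vehicle sham mice, against 19871, 12392 and 11614 without.

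In vehicle MOV mice mt-Co1 again had the highest level, at 19340 ± 1888 (SD, n = 5) CPM per kilobase, and mt-Atp6 followed at 9391 ± 1149 (SD, n = 5). With the counts of the copies added, mt-Co2 reached 13235 ± 1215, mt-Atp6 12503 ± 1274 and mt-Co3 11764 ± 869 (SD, n = 5) CPM per kilobase in these mice. The order below mt-Co1 thus depends on how counts were divided between genes and copies. Without the counts of the copies, mt-Nd1, at place 3 in both sham groups, was at place 5 in both MOV groups, although it overlapped its neighbors in the order. The ribosomal RNAs changed places, with mt-Rnr1 at 666 and mt-Rnr2 at 623 CPM per kilobase, and they overlapped.

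Overload lowered every mitochondrial gene in vehicle mice. All 15 members fell by edgeR's quasi-likelihood test at an adjusted p under 0.05, whereas 29.8% of the 14601 genes tested fell and 30.7% rose. The median log2 fold change of the members was -0.97, against -0.02 over all genes tested. The values of 14 members did not overlap between vehicle sham and vehicle MOV mice. The share of all genes without overlap is not given here, so this count does not set the members apart from other genes.

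The catalytic subunit gene mt-Co1 stood at 58874, 57273, 53056, 55455 and 55143 CPM in vehicle sham mice and at 32831, 32157, 30281, 25625 and 28509 CPM in vehicle MOV mice. Every MOV mouse was lower than every sham mouse, and the log2 fold change was -0.89 (SE 0.09, adjusted p = 1.06e-06). The complex I gene mt-Nd2 stood at 12315, 10746, 10341, 10090 and 10995 CPM in sham and at 5125, 5093, 4498, 3638 and 4747 CPM in MOV mice. Its fall was the largest of the members, with no overlap and a log2 fold change of -1.23 (SE 0.10, adjusted p = 1.67e-07). The small ribosomal RNA gene mt-Rnr1 stood at 923, 812, 846, 740 and 1219 CPM in sham and at 667, 796, 560, 578 and 580 CPM in MOV mice. Here vehicle MOV mouse 2 exceeded vehicle sham mouse 4, and the fall was the smallest of the members, with a log2 fold change of -0.50 (SE 0.13, adjusted p = 0.00504). The call of mt-Rnr1 was lost when only total counts set the scale, where its log2 fold change was -0.13 (adjusted p = 0.380), and with total nuclear counts, where it was -0.22 (adjusted p = 0.154).

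The other complex I genes fell by 1.21 (mt-Nd1), 1.13 (mt-Nd5), 1.07 (mt-Nd4l), 0.98 (mt-Nd4), 0.98 (mt-Nd3) and 0.95 (mt-Nd6) on the log2 scale. The complex IV genes mt-Co2 and mt-Co3 fell by 0.89 and 0.97, the ATP synthase genes mt-Atp6 and mt-Atp8 fell by 1.07 and 0.86, and mt-Cytb fell by 0.86. The large ribosomal RNA gene mt-Rnr2 fell by 0.87. The genes mt-Atp8 and mt-Atp6 share 43 bases, mt-Nd4l and mt-Nd4 share 7, and mt-Nd5 and mt-Nd6 share 14 on opposite strands. Whether counting used the strand is not given in the sources used here, so the values of mt-Nd6, the protein gene of the other strand, could hold reads from that strand's partner and are uncertain.

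In D + Q mice, too, all 15 members fell with overload by edgeR's test, whereas 30.9% of the 14913 genes tested fell and 34.4% rose. No member overlapped between the groups, and the share of all genes without overlap is again not given. The median log2 fold change was -0.90, against 0.02 over all genes tested. mt-Co1 stood at 56667, 49786, 46596, 45320 and 49941 CPM in D + Q sham mice and at 27561, 28989, 24658, 28364 and 27509 CPM in D + Q MOV mice. Every MOV mouse was again lower, with a log2 fold change of -0.81 (SE 0.08, adjusted p = 1.21e-07). The largest fall was that of mt-Nd2, at -1.20 (SE 0.08), and the smallest that of mt-Rnr1, at -0.49 (SE 0.09, adjusted p = 6.27e-05). With total counts only, mt-Rnr1 had a log2 fold change of -0.13 (adjusted p = 0.170) and was not called.

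The size of these falls depends on the scale. With total counts only, the median of the members was -0.59 with vehicle and -0.53 with D + Q, while the median of all genes moved to 0.36 and 0.39. Relative to all genes it was then -0.95 and -0.92, as against -0.95 and -0.92 with TMM. This likeness follows from the construction, since a change of scale shifts all genes nearly alike. Of the genes called between vehicle MOV and vehicle sham, 49.2% were lower with TMM, 22.6% with total nuclear counts and 16.0% with total counts only. With D + Q these shares were 47.4%, 22.2% and 16.5%.

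**Figure D3:**
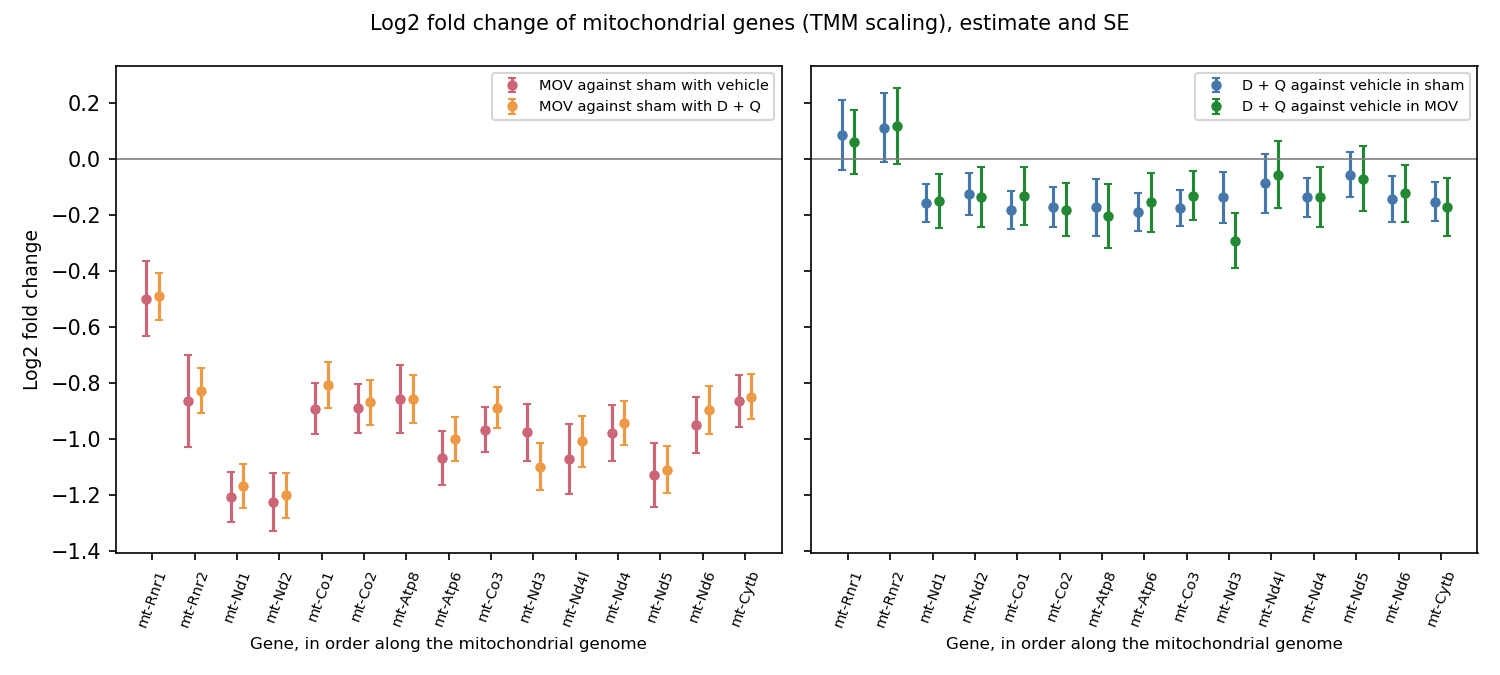
Log2 fold change with its SE (y axis) of the 15 members in order along the mitochondrial genome (x axis), for MOV against sham at the left and D + Q against vehicle at the right. All members lie between -1.23 and -0.49 at the left, and between -0.29 and 0.12 at the right. With total counts only as the scale, mt-Rnr1 at the left was not called.

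Other cell types changed in the same muscles. All 8 macrophage markers rose with overload, with a median log2 fold change of 2.66 with vehicle and 2.86 with D + Q. Their summed level was 48.2, 73.1, 65.3, 127 and 92.7 CPM in vehicle sham mice and 471, 240, 534, 730 and 461 CPM in vehicle MOV mice, with Lyz2 the most abundant. All 7 fibroblast markers rose, with medians of 2.71 and 2.51, and Col1a1, a chain of type I collagen, rose by 5.58 (SE 0.21) with vehicle. Their summed level, led by Col3a1, was 496, 447, 443, 639 and 562 CPM in vehicle sham mice and 7135, 4736, 8016, 9700 and 7904 CPM in vehicle MOV mice. Neither sum overlapped between sham and MOV mice, and every marker of both lists stayed called higher under each scaling tried. Among all genes tested with TMM, 30.7% rose with vehicle and 34.4% with D + Q.

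Of the 12 myofiber markers, 7 fell and 1 rose with vehicle, and 8 fell and 2 rose with D + Q. The fast myosin gene Myh4 fell by 1.56 (SE 0.10) and 1.51 (SE 0.10) on the log2 scale, while Myh2 rose by 0.74 (SE 0.13) with vehicle and Myh7, the slow myosin, rose by 3.14 (SE 0.55) with D + Q. Over all genes 29.8% fell and 30.7% rose with vehicle, and 30.9% fell and 34.4% rose with D + Q. On the scale of total counts only, 7 markers fell and 4 rose in each, beside 1457 falls and 7671 rises among 14601 genes with vehicle and 1658 and 8378 among 14913 with D + Q. The summed myofiber level, led by Myh4, was 203857, 176342, 191462, 188930 and 186998 CPM in vehicle sham mice and 121691, 136411, 112640, 101113 and 125713 CPM in vehicle MOV mice. These groups did not overlap. No listed marker of any cell type was at 0 in all mice. In whole muscle, a changed mix of cells cannot be told apart from less mitochondrial RNA per fiber, and the part of cell makeup in the falls was not tested.

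Among the other marker lists, 6 of 8 endothelial markers rose in both MOV comparisons, with Cldn5 at 1.21 (SE 0.13) with vehicle and Pecam1 at 0.71 (SE 0.11) with D + Q. All 8 were called higher in both when total counts alone set the scale, as were 7671 of 14601 genes with vehicle and 8378 of 14913 with D + Q. All 5 tested adipocyte markers fell with vehicle, with Plin1 at -2.06 (SE 0.39), and 3 of 5 with D + Q, with Plin4 at -1.35 (SE 0.10), while with vehicle total counts only left 2 of these calls. Of 6 Schwann cell markers 3 rose in both, with Sox10 at 1.35 (SE 0.56) and 1.57 (SE 0.64), and Mbp fell by 0.35 (SE 0.13) with D + Q, which turned to 0.02 and was not called with total counts only. Among all genes tested with TMM, 29.8% fell and 30.7% rose with vehicle, and 30.9% fell and 34.4% rose with D + Q. No red blood cell marker of 5 was called by edgeR, and 0 had an unadjusted p under 0.05, the smallest p being those of Alas2 with vehicle (log2 fold change -0.57) and Hba-a1 with D + Q (-0.10). Hba-a1 was at 0.26 with total counts only.

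The nuclear partners of the mitochondrial subunits fell too, with smaller medians. Of 81 nuclear respiratory chain subunits, 76 fell and 2 rose with vehicle, with a median log2 fold change of -0.49, and 79 fell and 2 rose with D + Q, with a median of -0.50. The risers were Cox8a and Cox6a1, complex IV isoforms found widely outside muscle, with Cox6a1 at 0.87 (SE 0.17) and 0.88 (SE 0.10). Cox8a, named after its values were seen, was at 0.65 (SE 0.09) and 0.70 (SE 0.07). The muscle isoform Cox6a2 had the largest fall of complex IV with vehicle, at -0.74 (SE 0.10), and Cox8b with D + Q, at -0.78 (SE 0.07). The medians were -0.11 and -0.13 with total counts only, where 28 fell and 6 rose with vehicle and 43 fell and 4 rose with D + Q. Over all genes 29.8% and 30.9% fell with TMM. With total counts only, 1457 of 14601 fell and 7671 rose with vehicle, and 1658 of 14913 fell and 8378 rose with D + Q. Relative to the median of all genes the nuclear subunits were at -0.47 and -0.52 on either scale, since a change of scale shifts all genes nearly alike.

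The summed level of the nuclear subunits was 28118 ± 2487 (SD, n = 5) CPM in vehicle sham, 25940 ± 1425 (SD, n = 5) in D + Q sham, 18899 ± 1090 (SD, n = 5) in vehicle MOV and 16977 ± 639 (SD, n = 5) CPM in D + Q MOV mice. The summed members exceeded this sum by a ratio of 6.43 ± 0.595 (SD, n = 5), 6.28 ± 0.273 (SD, n = 5), 4.78 ± 0.363 (SD, n = 5) and 4.87 ± 0.183 (SD, n = 5) in the same order. The ratio was lower in every MOV mouse, at 5.06 or less, than in every sham mouse, at 5.60 or more.

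By complex, with vehicle, 36 of 37 nuclear complex I genes fell (Ndufs1 most, -0.82, SE 0.07), as did 4 of 4 complex II genes (Sdha, -0.95, SE 0.09), 9 of 9 complex III genes (Uqcrc1, -0.70, SE 0.08) and 15 of 17 complex V genes (Atp5a1, -0.82, SE 0.09). With D + Q the counts were 37, 4, 9 and 17, led by Ndufs7 (-0.81, SE 0.06), Sdha (-0.94, SE 0.06), Uqcrc1 (-0.68, SE 0.07) and Atp5a1 (-0.75, SE 0.07). Complex II, which has no subunit from the mitochondrial genome, thus fell as well, with medians of -0.64 and -0.58. Of 8 genes that mark mitochondrial mass, 7 fell with vehicle (Slc25a4, the ADP/ATP carrier, -0.83, SE 0.08) and 8 with D + Q (Vdac1, an outer membrane channel, -0.86, SE 0.06), with medians of -0.65 and -0.64. Among all genes tested with TMM, 29.8% fell with vehicle and 30.9% with D + Q. On the scale of total counts only, the falls in complexes I, II, III and V numbered 14, 3, 3 and 4 with vehicle and 20, 3, 5 and 8 with D + Q, beside 1457 of 14601 and 1658 of 14913 over all genes. The medians of complex II were then -0.26 and -0.21 and those of the mass genes -0.28 in both, with 7 of 8 mass genes lower and 1 higher.

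The machinery that makes and keeps mitochondrial RNA changed in part. Of 9 tested genes of mitochondrial transcription 5 fell with vehicle, and of 10 with D + Q 6 fell and 1 rose. Tfb2m, a factor needed to start transcription, fell most, at -0.68 (SE 0.07) and -0.66 (SE 0.07), and Mterf4 rose by 0.43 (SE 0.15) with D + Q. The list medians were -0.26 and -0.40. Of 12 genes of replication and the nucleoid 7 fell and 1 rose in both, with Mgme1, a nuclease of mitochondrial DNA, at -1.01 (SE 0.11) and -0.97 (SE 0.10), and Tk2, a thymidine kinase of mitochondria, at 0.39 (SE 0.16) and 0.69 (SE 0.14). The medians were -0.32 and -0.28. Among all genes tested with TMM, 29.8% fell and 30.7% rose with vehicle, and 30.9% fell and 34.4% rose with D + Q. When total counts alone set the scale, the medians of transcription were 0.11 and -0.04 and those of replication 0.05 and 0.08, with 4 of the 12 replication genes lower and 5 higher in both. On that scale 1457 of 14601 genes were lower and 7671 higher with vehicle, and 1658 of 14913 lower and 8378 higher with D + Q. The direction of the replication list thus turns with the scale in both comparisons, and that of the transcription list with vehicle. Relative to the median of all genes, transcription was at -0.24 and -0.43 with TMM and -0.25 and -0.43 with total counts only, and replication at -0.30 and -0.31 with TMM and -0.31 in both with total counts only. Such relative values stay close by construction, since a change of scale shifts all genes nearly alike.

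Of 19 genes of RNA processing and turnover 16 fell with vehicle and 15 with D + Q, with medians of -0.42 and -0.35. Lrpprc, which binds and stabilizes mitochondrial messenger RNAs, fell most, at -0.84 (SE 0.08) and -0.80 (SE 0.06). Of 20 genes of transfer RNA charging 16 fell with vehicle, and 15 fell and 1 rose with D + Q, with medians of -0.39 and -0.37. Gatc fell most with vehicle, at -0.74 (SE 0.07), and Pars2 with D + Q, at -0.65 (SE 0.19), where Lars2, the leucine enzyme, rose by 0.62 (SE 0.21). Among all genes tested with TMM, 29.8% fell and 30.7% rose with vehicle, and 30.9% fell and 34.4% rose with D + Q. The falls of both lists also depend on the scale. With total counts only, 3 RNA processing genes fell with vehicle and 5 with D + Q, with medians of -0.05 and 0.01, and 2 transfer RNA charging genes fell in each, with medians of -0.01 and -0.00. Over all genes 1457 of 14601 and 1658 of 14913 fell on that scale. The median of RNA processing thus turned above 0 with D + Q. Pars2 was then at -0.29 and was not called. Against the median of all genes, at -0.02 and 0.02 with TMM, the RNA processing list was at -0.40 and -0.37 and the transfer RNA charging list at -0.37 and -0.39.

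The members were next compared with each other, with the summed counts of the mitochondrial protein genes as the library size, so that a value says how a gene moved against the mitochondrial mRNA total. With vehicle, mt-Rnr1 rose by 0.48 (SE 0.12, adjusted p = 0.00158), while mt-Nd1 (-0.22, SE 0.06), mt-Nd2 (-0.24, SE 0.06) and mt-Nd5 (-0.15, SE 0.07, adjusted p = 0.0478) fell. On this scale 1.03% of all genes fell and 87.3% rose, since the scale itself fell. With so many genes called, adjustment over all genes raised p little, for mt-Nd5 from 0.0422 to 0.0478 in edgeR's test. With D + Q the calls were of the same genes, mt-Rnr1 at 0.44 (SE 0.09, adjusted p = 7.12e-05), mt-Nd1 at -0.23 (SE 0.07), mt-Nd2 at -0.27 (SE 0.07) and mt-Nd5 at -0.17 (SE 0.08, adjusted p = 0.0331), with 0.992% of all genes lower and 86.9% higher. The call of mt-Nd5 was lost in both with the replicate block and without any of several mice: 8 of the 10 with vehicle and 6 of the 10 with D + Q. With the block its adjusted p was 0.0713 with vehicle and 0.0725 with D + Q. Without vehicle sham mouse 5, mt-Rnr2 was called higher as well with vehicle, at 0.25 (adjusted p = 0.0380), and without vehicle sham mouse 2 mt-Cytb was, at 0.12 (adjusted p = 0.0487). With D + Q, mt-Nd3 was called lower without D + Q MOV mouse 5 or without D + Q sham mouse 1, 3 or 4, and by DESeq2, at -0.16 (adjusted p = 0.0481).

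As percent of the mitochondrial mRNA counts, mt-Nd1 took 9.45, 9.46, 9.41, 9.46 and 9.72 in vehicle sham mice and 8.12, 7.69, 8.11, 8.23 and 8.55 in vehicle MOV mice. It took between 9.34 and 9.67 in D + Q sham mice and between 7.84 and 8.23 in D + Q MOV mice. All MOV mice were below all sham mice. mt-Nd2 took 6.39, 6.02, 6.15, 5.94 and 6.25 percent in vehicle sham and 5.32, 5.22, 5.12, 4.90 and 5.42 percent in vehicle MOV mice, which again did not overlap.

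mt-Rnr1 was at 0.479, 0.455, 0.503, 0.435 and 0.692 percent of the mitochondrial mRNA counts in vehicle sham mice and at 0.693, 0.815, 0.638, 0.778 and 0.661 percent in vehicle MOV mice. Vehicle sham mouse 5 stood among the MOV mice, so these groups overlapped. In D + Q sham mice it was at 0.566, 0.657, 0.572, 0.665 and 0.574 percent and in D + Q MOV mice at 0.796, 0.720, 0.790, 0.836 and 0.976 percent, with no overlap. Rn18s, the nuclear 18S ribosomal RNA, took 0.717%, 0.644%, 0.811%, 0.592% and 1.22% of all counts in vehicle sham mice, so mouse 5 was the highest there too. It took 1.03%, 1.01%, 1.15%, 1.17% and 1.69% in D + Q MOV mice, above every vehicle MOV mouse, at most 0.959%, and every D + Q sham mouse, between 0.549% and 0.762%. The ratio of its mean share in MOV to that in sham mice was 1.85 with D + Q and 1.01 with vehicle. The share of Rn18s thus differed between mice and groups, and the part of this in the values of mt-Rnr1 and mt-Rnr2 was not tested.

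**Figure D4:**
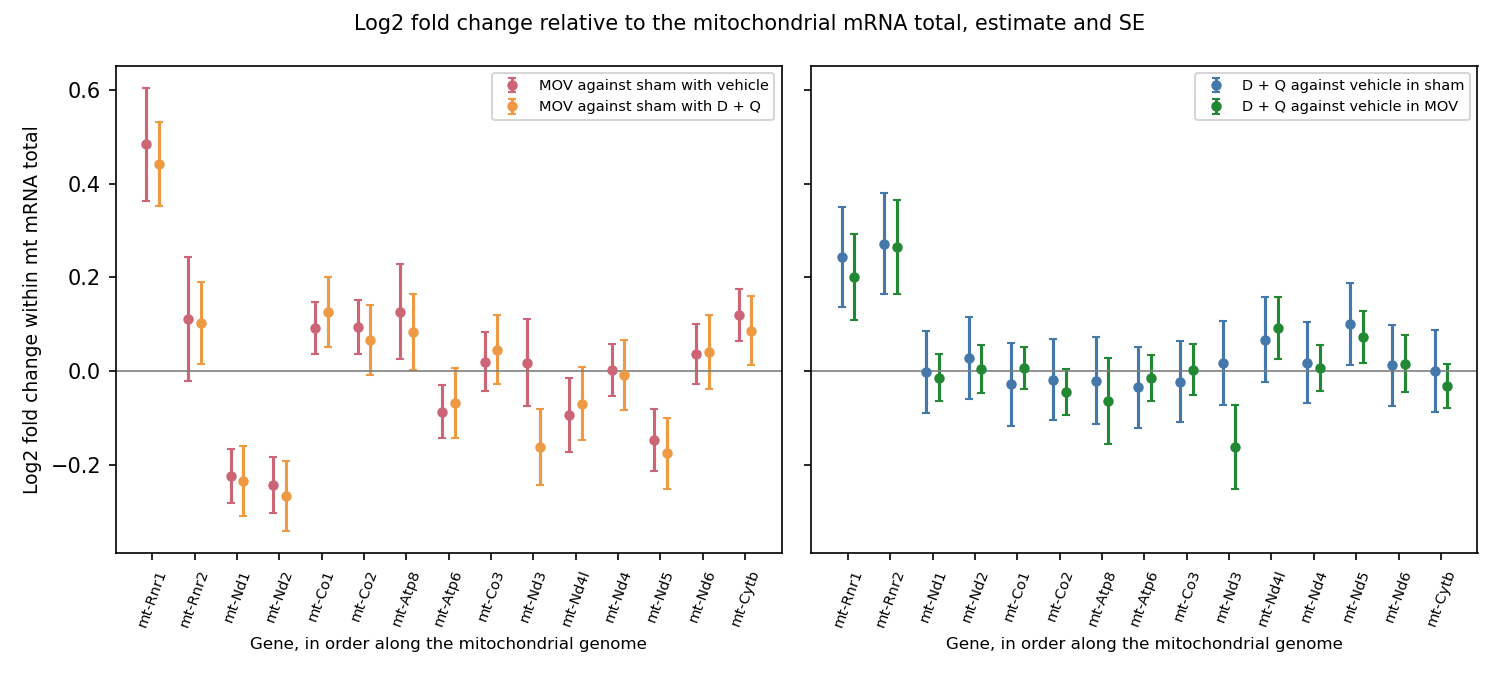
Log2 fold change relative to the mitochondrial mRNA total with its SE (y axis), for the 15 members in order along the genome (x axis). At the left, for MOV against sham, mt-Rnr1 lies at 0.48 and 0.44 and mt-Nd2 at -0.24 and -0.27. At the right, for D + Q against vehicle, no member was called.

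Ratios between single genes were compared by a two-sided exact permutation test over the 252 ways to divide 10 mice, in 8 tests, where the smallest possible p is 0.00794. The ratio of mt-Rnr1 to mt-Rnr2, which lie on the same transcript, was 0.486, 0.529, 0.516, 0.484 and 0.498 in vehicle sham and 0.613, 0.602, 0.639, 0.712 and 0.702 in vehicle MOV mice. All MOV mice were above all sham mice, with a log2 difference of 0.38 (exact permutation p = 0.00794, Benjamini-Hochberg adjusted over the 8 tests 0.0212). In D + Q sham mice it was 0.498, 0.511, 0.479, 0.488 and 0.481 and in D + Q MOV mice 0.595, 0.613, 0.626, 0.650 and 0.623, again with no overlap and a log2 difference of 0.34 (exact permutation p = 0.00794, adjusted 0.0212). D + Q and vehicle did not differ in this ratio by the test in sham (log2 difference -0.03, exact permutation p = 0.286, adjusted 0.327) or in MOV muscle (-0.07, exact permutation p = 0.262, adjusted 0.327).

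The ratio of mt-Nd6 to its neighbor mt-Nd5 on the other strand was 0.280, 0.261, 0.278, 0.281 and 0.288 in vehicle sham mice, and all vehicle MOV mice lay above these, up to 0.345. The log2 difference was 0.19 (exact permutation p = 0.00794, adjusted 0.0212). In D + Q sham mice it was 0.273, 0.260, 0.256, 0.265 and 0.252 and in D + Q MOV mice 0.266, 0.290, 0.311, 0.310 and 0.340, where D + Q MOV mouse 1 lay within the sham range and the log2 difference was 0.21 (exact permutation p = 0.0159, adjusted 0.0317). Between D + Q and vehicle the log2 difference was -0.09 in sham (exact permutation p = 0.0238, adjusted 0.0381) and -0.06 in MOV muscle (exact permutation p = 0.421, adjusted 0.421). Without D + Q sham mouse 2, 3 or 5 or without vehicle sham mouse 5 the p in sham was 0.0556 (exact permutation, n = 9), while the log2 differences stayed between -0.09 and -0.07. Against the sum of the 12 heavy-strand protein genes, mt-Nd6 had ratios of 0.0218 ± 0.00125 (SD, n = 5) in vehicle sham and 0.0223 ± 0.000706 (SD, n = 5) in vehicle MOV mice, which overlapped. The rise against mt-Nd5 was thus not seen against the whole strand. In D + Q sham mice this ratio was 0.0220 ± 0.000388 (SD, n = 5), which overlapped vehicle sham mice, with a log2 difference of 0.01. The lower ratio to mt-Nd5 with D + Q in sham was thus not seen against the whole strand either.

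Ratios of 3 further pairs were chosen after the values relative to the mitochondrial mRNA total had been seen, and they are given without a test. The ratio of mt-Nd1 to mt-Co1 was 0.301 ± 0.00899 (SD, n = 5) in vehicle sham and 0.242 ± 0.0120 (SD, n = 5) in vehicle MOV mice, and that of mt-Nd2 to mt-Co1 was 0.195 ± 0.0105 (SD, n = 5) and 0.154 ± 0.00941 (SD, n = 5). Neither overlapped. The ratio of mt-Nd1 to mt-Rnr2, the genes on the sides of mt-Tl1, was 9.55 ± 1.55 (SD, n = 5) and 7.52 ± 1.26 (SD, n = 5), with overlap. With D + Q the means in sham and MOV mice were 0.306 and 0.238, 0.202 and 0.154, and 7.72 and 6.15 in the same order, and none of the 3 overlapped.

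**Figure D5:**
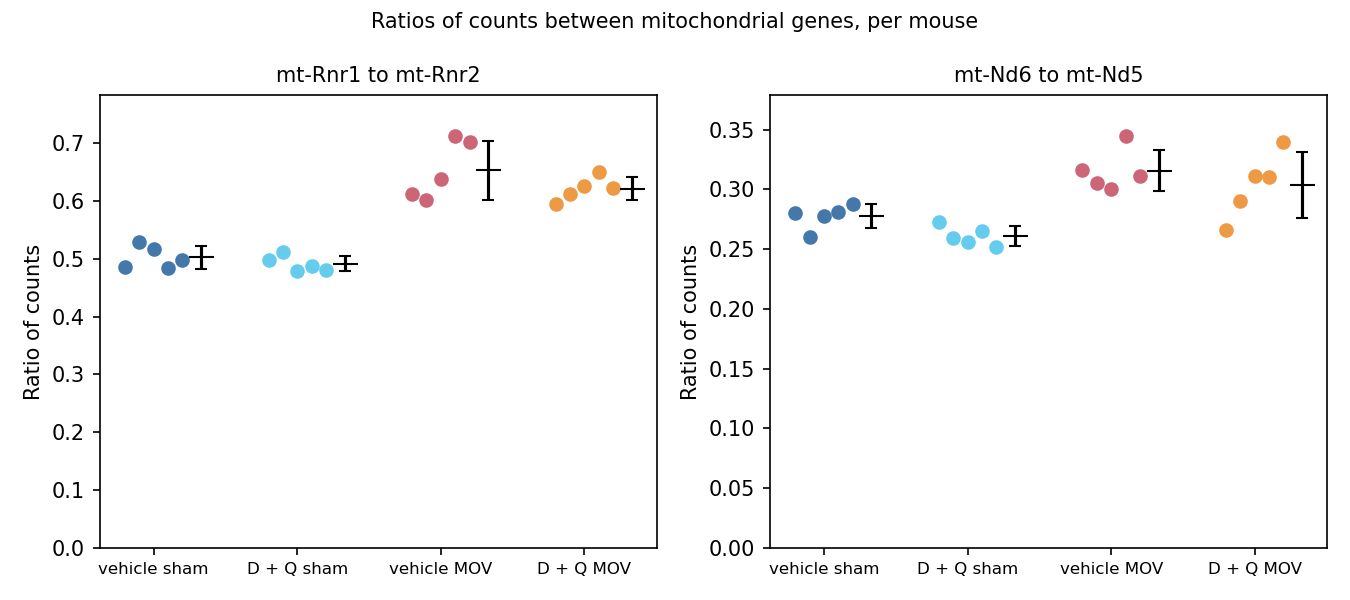
Ratios of counts (y axis) of mt-Rnr1 to mt-Rnr2 at the left and of mt-Nd6 to mt-Nd5 at the right, in the 4 groups (x axis), with 1 point per mouse and the mean with its SD in black. For mt-Rnr1 to mt-Rnr2 the sham mice lie at 0.529 or below and the MOV mice at 0.595 or above.

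In sham muscle no mitochondrial gene was called between D + Q and vehicle. With edgeR 0 of 15 members were called, and DESeq2 also called 0. Only 0.215% of the 13926 genes tested were called by edgeR in either direction, so this count does not set the members apart. Of the members 13 had an estimate below 0, with a median log2 fold change of -0.14 against -0.00 over all genes, and 6 had an unadjusted p under 0.05, as had 1420 of the 13926 genes. Over all genes 51.4% had an estimate below 0. The smallest adjusted p was 0.341, for mt-Atp6 (-0.19, SE 0.07) and mt-Co3 (-0.18, SE 0.06), and mt-Co1 was at -0.18 (SE 0.07, adjusted p = 0.354). No member separated the groups, and the share of all genes that did so is not given here. Against the mitochondrial mRNA total none was called either, where 0.0144% of all genes were lower and 1.53% higher. In that fit the estimates of mt-Rnr1 (0.24, SE 0.11, adjusted p = 0.207) and mt-Rnr2 (0.27, SE 0.11, adjusted p = 0.173) depended on vehicle sham mouse 5, without which both were called, at 0.37 (adjusted p = 0.0426) and 0.41 (adjusted p = 0.0227).

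In MOV muscle no member was called between D + Q and vehicle by edgeR or DESeq2. Over all genes, DESeq2 called 6 higher and 5 lower. With edgeR 0 of 15 members and 0% of the 15238 genes tested were called in either direction. This count therefore does not set the members apart from other genes. Again 13 estimates were below 0, with a median of -0.14 against 0.00 over all genes, and 1 had an unadjusted p under 0.05, as had 1340 of the 15238 genes, of which 49.5% had an estimate below 0. The median of the members was -0.21 without vehicle MOV mouse 4, -0.08 with total counts only and -0.08 with total nuclear counts. The member with a p under 0.05 was mt-Nd3, with 1025, 1044, 829, 934 and 1126 CPM in vehicle MOV mice and 738, 800, 748, 898 and 886 CPM in D + Q MOV mice. The groups overlapped, and its log2 fold change was -0.29 (SE 0.10, adjusted p = 0.523). Against the mitochondrial mRNA total 0% of all genes were lower and 0% higher. There mt-Rnr1 was at 0.20 (SE 0.09, adjusted p = 0.532) and mt-Rnr2 at 0.26 (SE 0.10, adjusted p = 0.532), both with an unadjusted p under 0.05. For D + Q against vehicle in MOV muscle, the paper reports many differentially expressed genes by DESeq2. Its most downregulated pathways were tied to electron transport and the TCA cycle.

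The nuclear subunits had small estimates of the same sign. In sham muscle 74 of 81 and in MOV muscle 81 of 81 were below 0, with medians of -0.12 and -0.16, and edgeR called 0 in both, with 28 and 41 at an unadjusted p under 0.05. Over all genes 51.4% and 49.5% were below 0, and 1420 of 13926 and 1340 of 15238 had an unadjusted p under 0.05. On the scale of total counts only, 65 and 79 were below 0. By list, the member with the smallest p in sham was Ndufs4 (-0.20), Sdhd (-0.24), Uqcrc2 (-0.16), Cox5a (-0.20) and Atp5l (-0.24) for complexes I to V. In MOV muscle it was Ndufa5 (-0.26), Sdhd (-0.15), Uqcr10 (-0.21), Cox6b1 (-0.21) and Atp5g2 (-0.43). No gene of the other lists was called by edgeR in these comparisons. In sham the smallest p were those of Mterf4 (-0.34) for transcription, Rrm2b (0.08) for replication, Slirp (-0.17) for RNA processing, Qrsl1 (-0.34) for transfer RNA charging and Vdac2 (-0.16) for mass. DESeq2 called Sdhd (adjusted p = 0.0496), Qrsl1 (adjusted p = 0.0125) and Vdac2 (adjusted p = 0.0496) lower in sham. In MOV muscle they were those of Tfb1m (-0.34), Twnk (-0.10), Tbrg4 (-0.25), Yars2 (-0.33) and Timm23 (-0.18).

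Cell type markers were likewise not called by edgeR between D + Q and vehicle. In sham the smallest p were those of Mylpf (-0.10), Cd68 (-0.41), Dcn (0.31), Cldn5 (0.45), Plin4 (0.20) and Hbb-bt (-0.52). Some of these stand apart from their lists, whose medians were 0.03 for myofiber, 0.17 for macrophage, 0.17 for endothelial, -0.11 for adipocyte and -0.50 for red blood cell markers. Cd68 was the only 1 of 8 macrophage markers below 0. In MOV muscle they were those of Myh2 (-0.36), Adgre1 (0.52), Lum (0.46), Tek (0.19), Plin1 (0.70), Pmp22 (0.21) and Hbb-bt (-0.37), where the medians were -0.03 for myofiber, 0.26 for macrophage, -0.08 for endothelial, 0.01 for adipocyte and -0.24 for red blood cell markers. Tek was 1 of 3 endothelial markers above 0, with 5 below. The fibroblast list had medians of 0.55 in sham and 0.42 in MOV muscle, with all 7 estimates above 0. Its summed level was 517 ± 83.4 (SD, n = 5) CPM in vehicle sham and 777 ± 219 (SD, n = 5) CPM in D + Q sham mice. The part of these markers in the small differences of the members was not tested.

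Whether D + Q altered the response to overload was asked with the interaction of both factors over all 20 mice. With edgeR 0 of 15 members were called, against 0.0127% of the 15700 genes tested in either direction, DESeq2 called 0, and no member had an unadjusted p under 0.05. The median log2 interaction of the members was -0.00, with estimates from -0.16 to 0.05. None of the 81 nuclear subunits was called, with a median of -0.05.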

How the data were processed

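RNA of 20 plantaris muscles was sequenced. The authors aligned reads with STAR 2.7.8a to GRCm39 and quantified genes in Partek, and they deposited estimated counts without normalization, 1 column per mouse. No columns of own comparisons were present, and 0 sample columns were left unused. Of the values 29.8% were not whole and were rounded for tests. Within groups the variance was at least 6.03 times the counting variance between any 2 libraries, which were therefore taken as separate mice.

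Tests used edgeR 4.0.16 (R 4.3.3, quasi-likelihood, robust, TMM, at least 10 counts in at least 5 mice, Benjamini-Hochberg over all genes, threshold 0.05). Each pair of groups was fitted alone with its 10 mice, the interaction with 20, and the code was tested on simulated data. Alternatives were DESeq2 1.42.0, RLE, total counts only, TMM or totals of nuclear genes, no count minimum or 50, all 20 mice in 1 fit, a replicate block, leaving out each mouse, and nuclear copies added.

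Nuclear copies were matched to GENCODE genes of GRCm39 (at least 90% identity over 100 bases), Gm10925 by a RefSeq synonym of GRCm38.p6. Every member is named. Of each gene list the largest rise and fall among called genes, or the smallest p, is named. Members and lists were chosen with earlier results of these data known. The 3 ratios without a test were chosen after the values were seen. They were first tested as well, and those p are not used because the ratios were not planned.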

Additional observations from a re-analysis of the deposited data

Results flagged for a closer look

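In 5 of 124 sets of 5 mice, 1 mouse lay far from the other 4 of its group, where chance gives about 1 in 20 sets. All 5 are percentages of the mitochondrial mRNA counts. In vehicle sham mouse 5, mt-Rnr1 was at 0.692 (the others between 0.435 and 0.503), mt-Rnr2 at 1.39 (0.861 to 0.985) and mt-Nd1 at 9.72 (9.41 to 9.46). In D + Q sham mouse 3, mt-Atp8 was low at 1.46 (1.73 to 1.76), and in D + Q MOV mouse 1, mt-Atp6 was low at 6.87 (7.15 to 7.25). No mouse stood apart in the mitochondrial share of all counts.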

How the results depend on the processing

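The 15 falls with vehicle and with D + Q kept their direction under every alternative tried. Of 704 values of single members in the MOV comparisons 685 kept their call, and the others are mt-Rnr1 under total scales and mt-Nd5 relative to the mitochondrial mRNA total. Median log2 fold changes moved to -0.59 and -0.53 with total counts only and to -0.68 and -0.61 with total nuclear counts, since these scales also shift the median of all genes. For the gene lists these scales, chosen after seeing the data, removed many falls and turned some medians above 0. With total counts only these were transcription with vehicle (0.11), replication (0.0498 with vehicle, 0.0804 with D + Q), RNA processing with D + Q (0.0144) and red blood cell markers with D + Q (0.28), and with total nuclear counts transcription with vehicle (0.0257), replication with D + Q (0.00368) and red blood cell markers with D + Q (0.20). Differences in share became -6.93 and -6.24 percentage points without the 10 largest nuclear genes in the denominator, by its construction. Relative to the mitochondrial mRNA total, DESeq2, also chosen after seeing the data, called 2 members higher in each MOV comparison (mt-Cytb with vehicle or mt-Co1 with D + Q, beside mt-Rnr1), and the cause was not tested. Leaving out 1 mouse gave 1 to 2 higher members with vehicle and 0 to 2 for D + Q in sham. In the TMM fits it gave medians from -0.99 to -0.89 with vehicle and from -0.94 to -0.84 with D + Q, with 15 calls throughout. The replicate numbers did not pair the mice: 3 of 20 same-number correlations exceeded 0.1 (from -0.25 to 0.25), and 5 of 20 were best with their own number. With the replicate block all 15 members were called in both MOV comparisons, with medians of -0.97 and -0.90, and 0 between D + Q and vehicle. Over all genes D + Q in sham had 30 calls with edgeR, 133 with DESeq2 and 19 with the block, and D + Q in MOV muscle had 0, 11 and 2. Adding the counts of nuclear copies, also chosen after seeing the data, gave medians of -0.95 and -0.89. With 5 mice per group, a p above the threshold does not show that D + Q left a gene unchanged. Sequencing depth limits no member, as the lowest count in a mouse was 11890.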
